A study of Mus musculus with 24 samples.

Results

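The miRNA profile of 4T1, a mouse mammary carcinoma line labelled highly metastatic, was compared with that of 67NR, a line labelled nonmetastatic. The arrays were chosen by the line in their label: 8 arrays of 4T1 and 8 of 67NR, 16 of the 24 arrays of the study. The other 8 hold 4TO7, a line labelled systemically invasive, and their values are given beside the main comparison. Both lines were grown for 6 days in 3-dimensional organotypic culture under the same 4 conditions, with 2 arrays per line and condition, named set 1 and set 2. The conditions were a rigid or a compliant microenvironment, each combined with TGFb or with a blocker of its type I receptor, the arm that the labels call basal. Every culture had TGFb or the receptor blocker, so no group was free of both. The labels do not say whether the sets were separate cultures, and the p-values then measure the spread between these samples, which may be technical. 67NR, 4TO7 and 4T1 are known as sister lines from a single spontaneous mouse mammary tumour. Each degree of spread is represented here by a single line, so a difference is between these lines.

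miRNAs are short RNAs that pair with messenger RNAs mainly through a seed near their 5′ end and lower the output of their targets. Members of a family share the seed, and members of a cluster are cut from a common primary transcript. In mammary epithelium the miR-200 family is known to hold down the transcription factors Zeb1 and Zeb2, which repress E-cadherin and drive epithelial-mesenchymal transition. The miR-17 to miR-92 cluster and its paralogues are known from proliferating tumour cells, and the miR-183 cluster from sensory epithelia and from carcinomas.

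The mature sequences below belong to the miRNAs with the largest differences and to the miR-146 pair, and show which of them share a seed. They are RefSeq sequences of the GRCm38.p6 assembly, written 5′ to 3′, with bases 2 to 8, the seed, in capitals. The miR-200 family has 2 seeds, and the first 3 sequences share the first of them.
miR-200c: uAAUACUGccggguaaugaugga
miR-200b: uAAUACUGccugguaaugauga
miR-429: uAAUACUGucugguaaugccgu
miR-141: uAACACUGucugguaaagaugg
miR-200a: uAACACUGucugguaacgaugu
miR-182: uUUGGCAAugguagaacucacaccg
miR-96: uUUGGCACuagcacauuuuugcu
miR-183: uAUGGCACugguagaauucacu
miR-17: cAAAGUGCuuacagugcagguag
miR-20a: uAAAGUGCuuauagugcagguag
miR-106a: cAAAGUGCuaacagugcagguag
miR-18a: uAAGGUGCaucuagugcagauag
miR-18b: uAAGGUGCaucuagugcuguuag
miR-19b: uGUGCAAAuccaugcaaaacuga
miR-92a: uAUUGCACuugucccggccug
miR-146a: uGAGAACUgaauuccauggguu
miR-146b: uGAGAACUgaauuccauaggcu
miR-7a: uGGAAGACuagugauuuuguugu
miR-204: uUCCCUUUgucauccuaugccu
miR-211: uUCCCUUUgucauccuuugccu
miR-214: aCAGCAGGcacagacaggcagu
miR-761: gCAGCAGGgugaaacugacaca
Several of these probes have near-identical targets. The mature sequences of miR-17 and miR-106a differ at 1 of 23 bases, miR-204 and miR-211 at 1 of 22, and miR-146a and miR-146b, miR-200b and miR-200c, and miR-200a and miR-141 at 2 of 22 each. How far such probes share signal was not tested, and values of such pairs are not separate evidence.

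A level below is the log2 of an array's relative intensity, which is the sample's signal over that of a synthetic reference pool, after quantile normalization over 558 miRNA probes. A probe was detected on an array where its deposited presence p was under 0.05, which held for 334 to 357 probes on 4T1 arrays and 313 to 325 on 67NR arrays. Arrays of the same group correlated with r of 0.995 to 0.999 over miRNA probes, and arrays of different lines with r of 0.888 to 0.931. Precision is limited by the small number of arrays. On the first principal component of the 16 arrays, which held 86.6% of the variance, the lines did not overlap.

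Most probes differed between the lines, and the large differences ran mainly towards 4T1. Of 360 tested probes, 323 (89.7%) passed an adjusted p under 0.05 (limma, with Benjamini-Hochberg adjustment), 110 (30.6%) higher and 213 (59.2%) lower in 4T1. With a difference of at least 2-fold as well, 40 (11.1%) were higher and 5 (1.39%) lower, 45 (12.5%) in all; the lower count was 2 in the authors' deposited value table, beside 40 higher, and 7 under median scaling over all miRNA probes, beside 34 higher. The median difference, 4T1 minus 67NR, over all tested probes was -0.22 on the log2 scale, so small negative differences are the common case and are read against that value. The levels of the 8 4T1 and the 8 67NR arrays did not overlap for 230 probes (63.9%). All 45 probes past 2-fold had the same sign in all 4 conditions, as did 303 of the 323 called. Both sets were picked by the mean of these 4 differences, so that agreement is largely built in.

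**Figure D1:**
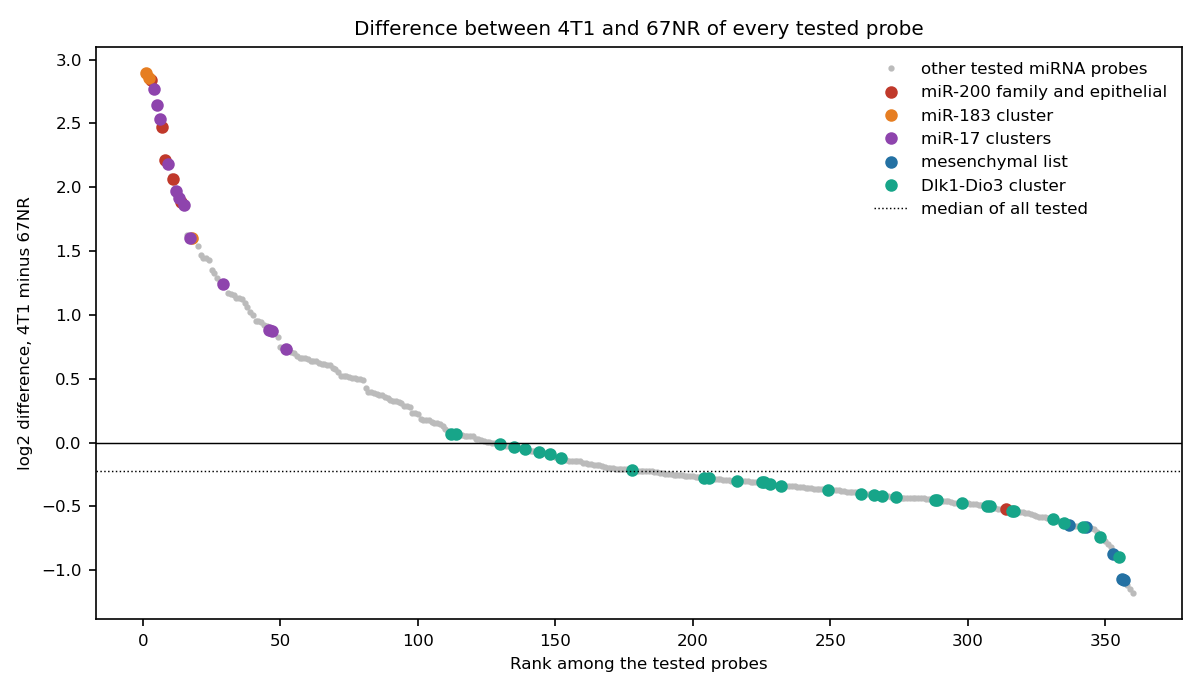
Every tested probe is placed by rank (x axis) and by its log2 difference, 4T1 minus 67NR (y axis), with 5 groups of miRNAs coloured and the median of all tested probes, -0.22, as a dotted line. The miR-200 family, the miR-183 cluster and the miR-17 clusters fill most of the upper end, up to 2.89, and the mesenchymal list lies near the lower end.

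The slides on which arrays were printed overlap both lines in part. The 5 slides held 2, 2, 3, 0 and 1 4T1 arrays and 2, 0, 2, 2 and 2 67NR arrays. A matched comparison within a slide existed for compliant basal culture on slide 1, with 1 array of each line, and for compliant TGFb culture on slide 3, with 2 4T1 arrays and 1 67NR array. Of the 323 called probes, 313 had the same direction within slide 1 and 319 within slide 3, and so did all 45 past 2-fold on both slides. These arrays are among the 16 behind the calls, so part of that agreement is built in.

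The largest differences favoured 4T1 and fell into a few families. The miR-200 family was higher in 4T1 at all 5 tested members, where 30.6% of all tested probes were higher. miR-200c, from a cluster with miR-141 at chr6:124717914-124718390 on the minus strand (GRCm38.p6), had a lowest, median and highest level of 8.28, 8.59 and 8.75 in 4T1, against 5.66, 5.75 and 5.83 in 67NR. It was detected on 8 of 8 4T1 arrays and on 0 of 8 67NR arrays, so only a bound can be given, at least 6.41-fold higher in 4T1 (difference of measured means 2.84 ± 0.04, SE, adjusted p = 8.5e-19). A bound sets the 4T1 mean against the lowest level of any detected probe on each 67NR array, or the probe's own level where that is higher. In the latter case the bound is the measured ratio. Levels are relative to the reference, so detection has no common level. In 67NR miR-183 was undetected at a mean of 8.37, and miR-141 was detected at a mean of 6.64. The bounds are thus approximate. miR-141 was detected on all 16 arrays, and its levels were 9.01, 9.10 and 9.28 in 4T1, against 6.54, 6.62 and 6.83 in 67NR. That is a 5.56-fold difference, 2.48 ± 0.04 on the log2 scale (SE, adjusted p = 2.9e-18).

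The other 3 members come from a second cluster, at chr4:156053905-156055750 on the minus strand of GRCm38.p6. The levels of miR-200a were 8.32, 8.57 and 8.67 in 4T1 and 6.26, 6.35 and 6.52 in 67NR, where it was detected on 1 of 8 arrays; the measured difference was 2.21 ± 0.04 (SE, adjusted p = 1.1e-17), with the 67NR values mostly at background. Its lowest 4T1 value, from compliant basal set 1, stood apart from the other 7 arrays of 8.53 to 8.67. miR-429 had levels of 7.45, 7.57 and 7.63 in 4T1, against 5.40, 5.51 and 5.56 in 67NR, and was at least 3.17-fold higher. For miR-200b the values were 7.20, 7.36 and 7.52 in 4T1 and 5.36, 5.49 and 5.59 in 67NR, at least 2.77-fold higher. Both were undetected on every 67NR array, and no 67NR array reached the lowest 4T1 array for any of the 5 members. The lines also did not overlap for 63.9% of all tested probes. All members but miR-141 entered the test only through their detection in 4T1, so their separation was partly set by that choice.

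Epithelial miRNAs outside the family did not follow this order. miR-203, an epidermal miRNA, was lower in 4T1, with levels of 7.41, 7.54 and 7.57 in 4T1 and 7.87, 8.09 and 8.14 in 67NR (difference -0.52 ± 0.03, SE, adjusted p = 1.1e-11). miR-205, known from basal mammary epithelium, and miR-375 were detected on no array of either line. Of the 8 epithelial markers, 4T1 arrays thus detected 6 on all 8 arrays, while 67NR arrays detected miR-141 and miR-203 on all 8, miR-200a on 1 and the rest on none. In RNA from whole cultures, fewer cells with a miRNA and less of it per cell cannot be told apart.

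The miR-183 cluster, 3 miRNAs at chr6:30165918-30169737 on the minus strand within the span of the gene Mirc35hg, was higher in 4T1 at all 3 members. Of all tested probes 30.6% were higher. miR-182 had levels of 9.74, 9.86 and 10.28 in 4T1 against 6.87, 7.05 and 7.19 in 67NR. The fold difference was 7.44 and the log2 difference 2.89 ± 0.04 (SE, adjusted p = 8.5e-19); 7 of 8 67NR arrays detected it. miR-96, from the same transcript, had levels of 8.83, 8.97 and 9.17 in 4T1 and 5.78, 6.15 and 6.35 in 67NR, at least 7.10-fold higher. miR-183 itself was at 9.83, 9.95 and 10.15 in 4T1 and 8.29, 8.37 and 8.43 in 67NR, at least 3.03-fold higher. Neither was detected on any 67NR array, so both entered the test only through 4T1.

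**Figure D2:**
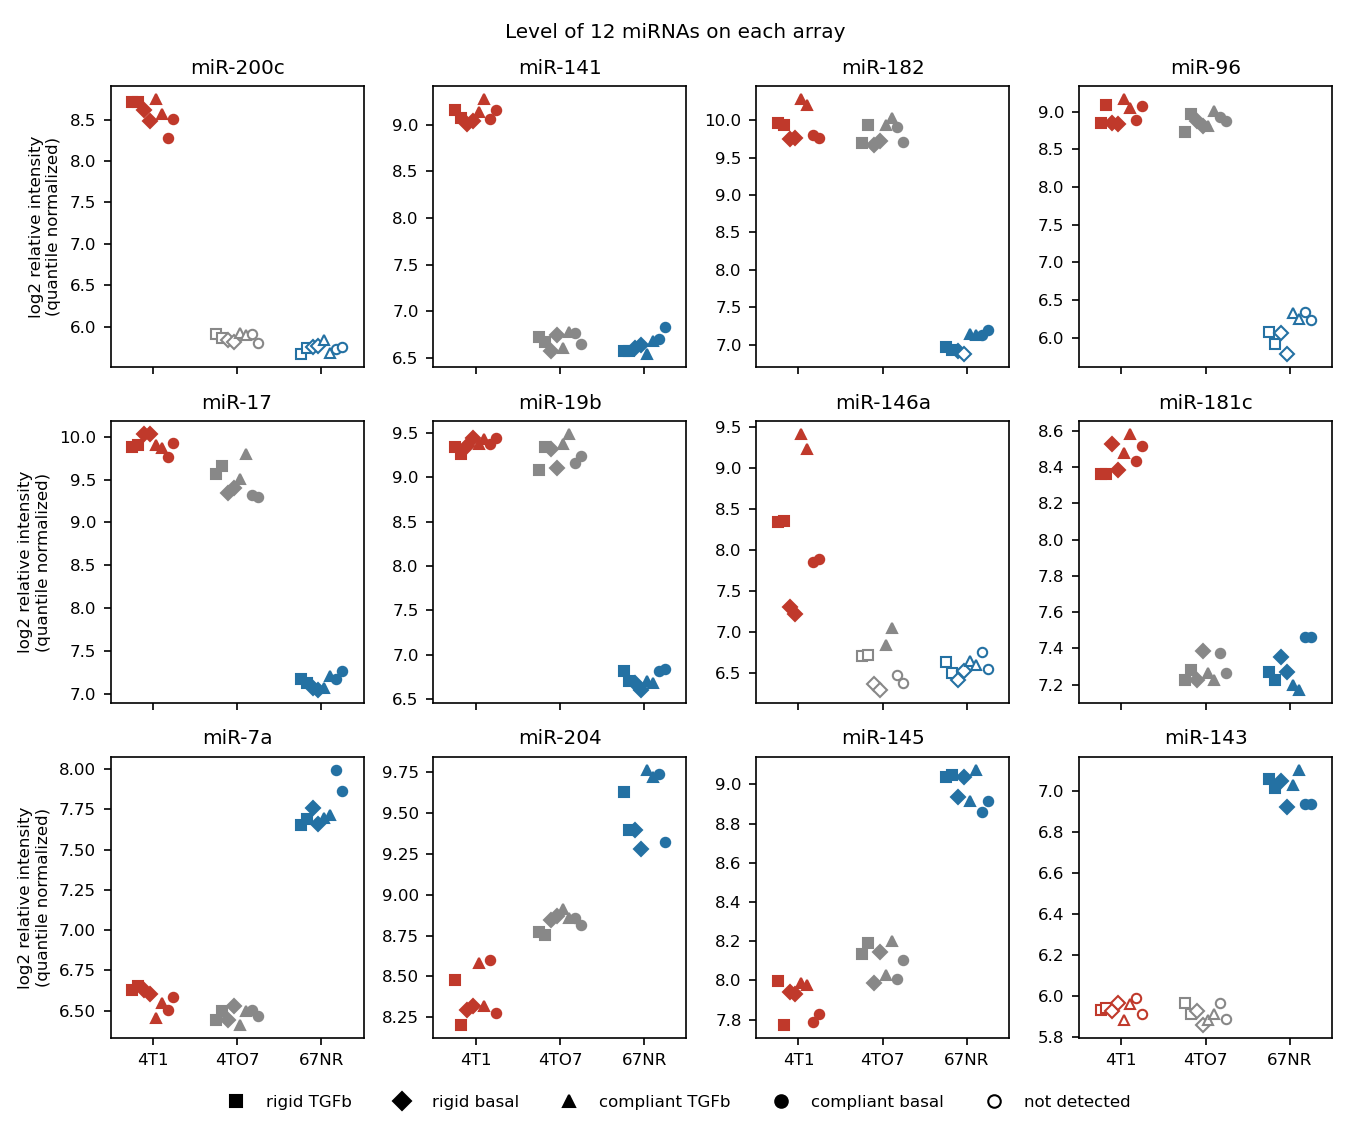
The log2 level of 12 miRNAs (y axes, each with its own range) is shown for every array of 4T1, 4TO7 and 67NR (x axes), with marker shape for the culture condition and open markers where the probe was not detected. 4T1 arrays stand alone at the top for miR-200c, miR-141, miR-146a and miR-181c, 4T1 and 4TO7 arrays share the upper level for miR-182, miR-96, miR-17 and miR-19b, and 67NR arrays are highest for miR-7a, miR-204, miR-145 and miR-143.

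The miR-17 clusters were higher in 4T1 at all 12 tested probes, 9 of them at least 2-fold. Of all tested probes 30.6% were higher and 11.1% higher by at least 2-fold. The median difference was 1.89 (1.5 with the 4 probes undetected in 67NR at their bound) against -0.22 over all tested probes. Those 4 probes entered the test only through their detection in 4T1, so their direction was partly set by that choice. They come from the miR-17 to miR-92 cluster at chr14:115043671-115044506 (plus strand), the miR-106a to miR-363 cluster at chrX:52741693-52742567 (minus strand) and the miR-106b to miR-25 cluster at chr5:138165321-138165818 (minus strand, within the span of Mcm7). miR-363 was detected on no array of either line. Several of the 12 probes have near-identical targets. miR-19a and miR-19b differ at 1 of 23 bases, and miR-17 and miR-20a, and miR-18a and miR-18b, at 2 of 23 each. How far these probes share signal was not tested, so the 12 are not separate evidence. miR-17 had levels of 9.77, 9.90 and 10.03 in 4T1 and 7.05, 7.15 and 7.27 in 67NR, a 6.83-fold difference (2.77 ± 0.04, SE, adjusted p = 1.8e-18). miR-19b, of the miR-19 seed family, was at 9.26, 9.37 and 9.44 in 4T1 and 6.61, 6.71 and 6.84 in 67NR (2.65 ± 0.04, SE). miR-20a followed with 9.28, 9.57 and 9.71 in 4T1 and 6.81, 7.01 and 7.14 in 67NR (2.53 ± 0.06, SE). In all 3 the lines were separated by more than 2 log2 units with no overlap, where 63.9% of all tested probes had no overlap.

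The remaining members of these clusters differed less. miR-18a was at 7.46, 7.57 and 7.74 in 4T1 and 5.26, 5.41 and 5.51 in 67NR, at least 3.21-fold higher, and miR-18b was at least 2.49-fold higher. miR-106a had levels of 8.63, 8.80 and 8.91 in 4T1, against 6.51, 6.86 and 6.90 in 67NR (1.97 ± 0.05, SE); its lowest 67NR value, from rigid basal set 2, lay apart from the other 7, at 6.80 to 6.90. The difference was 1.86 for miR-92a, 1.24 for miR-106b, and 0.88 for both miR-93 and miR-25. miR-19a was at least 2.38-fold and miR-20b at least 1.66-fold higher, since neither was detected in 67NR.

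Both arms of a precursor did not always move together. Of 61 precursors with both arms tested, 34 had both arms called in the same direction and 16 in opposite directions. Of all tested probes, 30.6% were higher and 59.2% lower. Differences here are as measured, also for arms undetected in 67NR. For miR-17 the main arm differed by 2.77 and miR-17* by -0.02 (adjusted p = 0.46), a value that turned to 0.10 (adjusted p = 0.0016) in the authors' deposited value table and to 0.04 to 0.06 under 3 other scalings. miR-200c* differed by -0.20 beside 2.84 for miR-200c, miR-183* by -0.20 beside 1.60 for miR-183, and miR-92a* by -0.44 beside 1.86 for miR-92a. miR-200c* and miR-183* lie near the median of all tested probes, and miR-200c* was detected on only 4 of 8 arrays of each line. miR-20a* was at least 1.62-fold higher in 4T1, and miR-31 and miR-31* both differed by 1.13. Of the 64 star-strand probes tested among 114, 8 were higher and 50 lower, where 30.6% and 59.2% of all tested probes were. Their median of -0.29 lay near the -0.22 over all tested probes, and 5 were higher and 30 lower with scaling to spike-in probes.

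Several other families were higher in 4T1 by smaller amounts, where 30.6% of all tested probes were higher. The miR-23 clusters, known from endothelial and haematopoietic cells and from TGF-beta signalling, had all 3 probes past 2-fold. miR-24 was at 11.43, 11.77 and 11.91 in 4T1 and 10.12, 10.28 and 10.53 in 67NR (1.44 ± 0.06, SE), the shared probe of miR-27a and miR-27b differed by 1.23, and that of miR-23a and miR-23b by 1.0. The miR-130 and miR-301 family was higher at 4 of 4 members, led by miR-301a (1.54 ± 0.04, SE) and miR-130a (1.47 ± 0.05, SE), with miR-301b at 0.94 and miR-130b at 0.49. miR-301a levels were 8.25, 8.45 and 8.77 in 4T1 and 6.86, 7.02 and 7.06 in 67NR. The miR-29 family, known to repress collagens, was higher at 3 of 3, by 1.29 for miR-29b, 1.17 for miR-29a and 0.75 for miR-29c.

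The miR-181 family was higher at 4 of 4 members (30.6% of all tested probes were higher). miR-181c had levels of 8.36, 8.46 and 8.58 in 4T1 and 7.17, 7.27 and 7.46 in 67NR (1.15 ± 0.03, SE, adjusted p = 2.4e-15), and miR-181d, miR-181a and miR-181b differed by 1.02, 0.95 and 0.61. The levels of 2 of the 4 did not overlap between the lines, where those of 63.9% of all tested probes did not. In the miR-99, miR-100 and miR-125 families all 5 members were higher, led by miR-125b-5p, the mammalian counterpart of worm lin-4. Its levels were 13.27, 13.69 and 13.97 in 4T1 and 11.72, 12.36 and 12.78 in 67NR (1.32 ± 0.05, SE); miR-100 differed by 0.66, miR-125a-5p by 0.64, miR-99a by 0.43 and miR-99b by 0.24, the last without a call (0.05, adjusted p = 0.24) under median scaling over all miRNA probes and with scaling to spike-in probes or none. All 5 miR-30 members were higher, from 0.39 for miR-30c to 1.10 for miR-30d, where 67NR arrays detected miR-30b on 1 and miR-30c on 2 of 8. miR-26a and miR-26b differed by 0.68 and 0.66.

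The let-7 family, known to be low in embryonic cells and to repress growth genes such as Hmga2, was higher in 4T1 at 9 of 9 members (30.6% of all tested probes were higher) with a median of 0.52, and at 7 of 9 with scaling to spike-in probes. let-7g had the largest difference, 0.83 ± 0.07 (SE, adjusted p = 5.0e-09), with levels of 10.10, 10.24 and 10.53 in 4T1 and 9.28, 9.46 and 9.72 in 67NR, followed by let-7a at 0.74 and let-7f at 0.66. The pair miR-221 and miR-222, which repress the cell-cycle inhibitor p27, differed by 0.18 and 0.29 with overlapping levels, and their sign was not the same in all 4 conditions. miR-221 was not called under median scaling over all miRNA probes, nor under scaling to spike-in probes or no scaling, the last pair chosen after seeing the data.

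**Figure D3:**
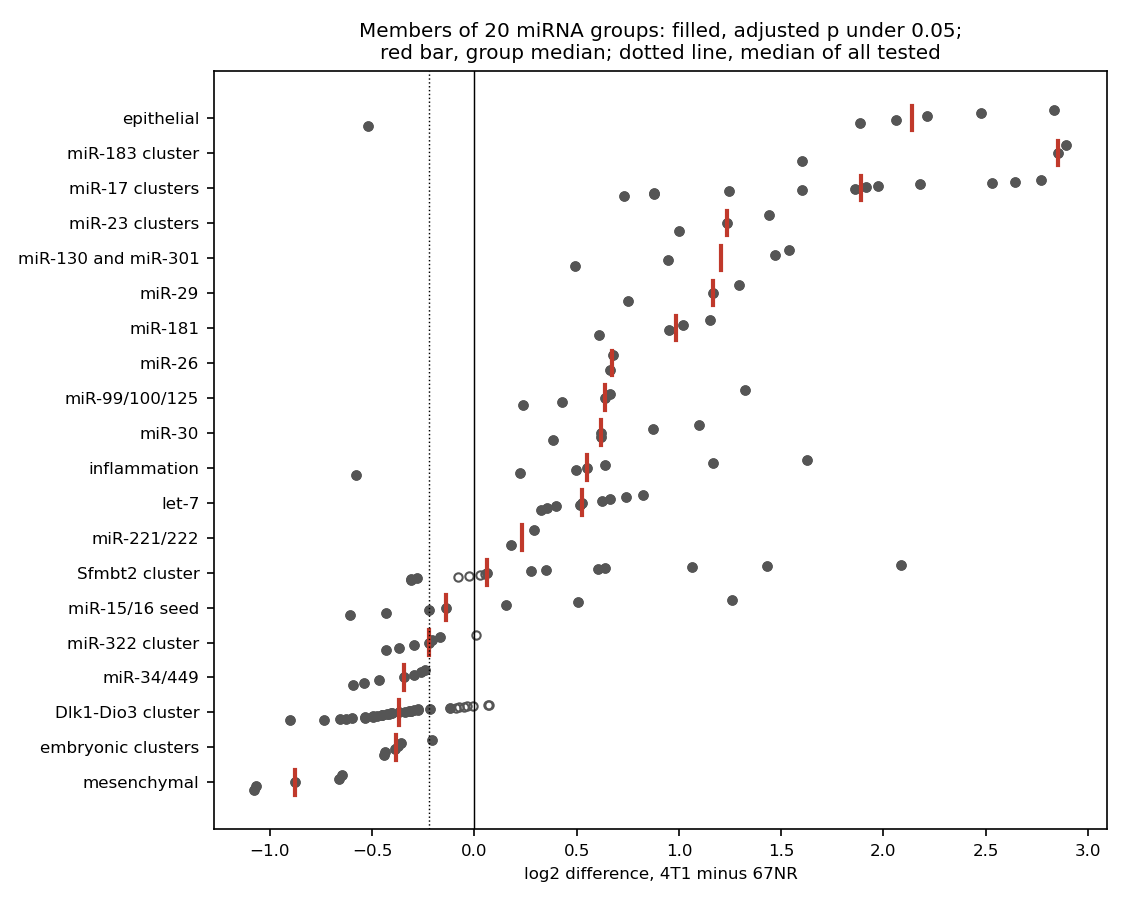
Each dot is the log2 difference, 4T1 minus 67NR (x axis), of a member of the named group (y axis), filled where its adjusted p was under 0.05, with the group median as a red bar and the median of all tested probes, -0.22, as a dotted line. Differences are as measured, undetected probes included, and medians run from 2.85 for the miR-183 cluster to -0.88 for the mesenchymal list, and within the epithelial group miR-203 stands on the other side from the miR-200 family.

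Seeds did not always travel as a block. In the miR-15 and miR-16 seed family, known to restrain the cell cycle, 3 members were higher and 4 lower, and 2 and 2 with scaling to spike-in probes. Of all tested probes, 30.6% were higher and 59.2% lower. The family's median of -0.14 lay near the -0.22 over all tested probes. miR-15a was at 9.02, 9.28 and 9.63 in 4T1 and 7.83, 8.02 and 8.24 in 67NR (1.26 ± 0.05, SE), and miR-15b differed by 0.50, while miR-497 was at 8.01, 8.11 and 8.17 in 4T1 and 8.61, 8.70 and 8.80 in 67NR (-0.61 ± 0.04, SE). Of the X-linked miR-322 and miR-503 cluster, 6 of 7 tested probes were lower, where 59.2% of all tested probes were, and the median of -0.22 equals that of all tested probes. It was led by miR-322 at -0.43, miR-322* at -0.37 and miR-542-5p at -0.29, but only 3 of the 7 were called with scaling to spike-in probes or with none. The miR-34 and miR-449 family, whose miR-34 members are targets of p53, was lower at 7 of 7 probes (59.2% of all tested probes were lower) with a median of -0.35 against -0.22 over all tested probes, and at 5 of 7 with scaling to spike-in probes and 6 of 7 with none, led by miR-34c at -0.59, miR-34b-5p at -0.54 and miR-449a at -0.47.

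miRNAs tied to inflammatory signalling were mostly higher. Of 7 tested, 6 were higher and 1 lower, where 30.6% of all tested probes were higher and 59.2% lower. miR-146a, which represses the receptor adaptors Traf6 and Irak1, was detected on 8 of 8 4T1 arrays and 0 of 8 67NR arrays, with levels of 7.22, 8.11 and 9.42 in 4T1 and 6.41, 6.57 and 6.76 in 67NR. It was at least 3.09-fold higher in 4T1, and miR-146b at least 2.21-fold, also undetected in 67NR. miR-132 differed by 0.64, miR-21, a widespread tumour miRNA, by 0.55, miR-212 by 0.50 and miR-155 by 0.22, the last with overlapping levels. miR-147 was the exception, at 8.07, 8.19 and 8.26 in 4T1 and 8.65, 8.78 and 8.88 in 67NR (-0.58 ± 0.03, SE).

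The largest differences in favour of 67NR were smaller, at most 1.18 on the log2 scale after quantile normalization. miR-214, given below, reached -1.25 under median scaling over all miRNA probes. miR-7a, known in human cells to repress the receptor for epidermal growth factor, had levels of 6.46, 6.60 and 6.65 in 4T1 and 7.65, 7.71 and 8.0 in 67NR (-1.18 ± 0.03, SE, adjusted p = 3.8e-16). Its 2 hairpins are Mir7-1, within the span of Hnrnpk at chr13:58392779-58392886 on the minus strand, and Mir7-2 at chr7:78888277-78888373 on the plus strand, and the arrays cannot tell them apart. miR-204, within the span of Trpm3 at chr19:22750605-22750672, was at 8.20, 8.32 and 8.60 in 4T1 and 9.28, 9.51 and 9.77 in 67NR (-1.15 ± 0.07, SE, adjusted p = 9.0e-11). miR-211, within the span of Trpm1 at chr7:64205806-64205911, was at 8.24, 8.33 and 8.63 in 4T1 and 9.24, 9.49 and 9.71 in 67NR (-1.11 ± 0.06, SE). Both are known from pigmented epithelium and melanocytes, they share a seed, and with 1 differing base their near-equal values cannot be assigned to either.

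The mesenchymal list was lower in 4T1 at all 5 tested probes, where 59.2% of all tested probes were lower. Its median was -0.88 against -0.22 over all tested probes. It ran from -0.74 in the authors' deposited value table (4 probes) to -1.12 under median scaling over all miRNA probes. miR-145, known with miR-143 from smooth muscle and fibroblasts, was at 7.77, 7.94 and 8.0 in 4T1 and 8.86, 8.99 and 9.08 in 67NR (-1.08 ± 0.04, SE, adjusted p = 2.5e-13). miR-143 was at 5.88, 5.94 and 5.99 in 4T1, where no array detected it, and at 6.92, 7.02 and 7.10 in 67NR, where all 8 did, so it was at least 2.04-fold higher in 67NR. miR-214, which lies with miR-199a-2 at chr1:162217814-162223477 on the plus strand within the spans of Dnm3 and Dnm3os, was at 12.66, 12.71 and 13.01 in 4T1 and 13.40, 13.69 and 13.69 in 67NR (-0.88 ± 0.04, SE). It had the same rank, and so the same normalized value, on 7 of the 8 67NR arrays. Without quantile normalization its difference was larger, -1.25 under median scaling over all miRNA probes and -1.16 over probes detected on all arrays. It was -1.10 in the authors' deposited value table, -1.15 with scaling to spike-in probes and -1.14 with none. miR-199b* and miR-199a-5p differed by -0.66 and -0.65, while the shared probe of miR-199a-3p and miR-199b and the probe of miR-214* were detected on no array of either line. Summed over the 5 tested probes on the linear scale, the list was at 7092 to 8919 in 4T1 and 12123 to 14452 in 67NR, and miR-214 made up 90.2 to 92.6% of it in 4T1 and 89.2 to 91.8% in 67NR, so the sum mainly follows that probe. A part of fibroblast-like cells in these values was not tested.

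The rest of the 12 largest differences towards 67NR have no family in common. miR-494, of the Dlk1-Dio3 cluster, was at 11.27, 11.38 and 11.43 in 4T1 and 12.01, 12.27 and 12.38 in 67NR (-0.90 ± 0.05, SE), and its lowest 67NR value, from compliant basal set 2, lay apart from the other 7, at 12.24 to 12.38. miR-761, which shares its seed with miR-214, was at 10.47, 10.53 and 10.70 in 4T1 and 11.27, 11.43 and 11.52 in 67NR (-0.88 ± 0.05, SE). miR-505, miR-135a*, miR-706 and miR-693-5p differed by -0.82, -0.79, -0.77 and -0.74. None of the 12, picked as the largest differences, had overlapping levels, where 63.9% of all tested probes had none.

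**Figure D4:**
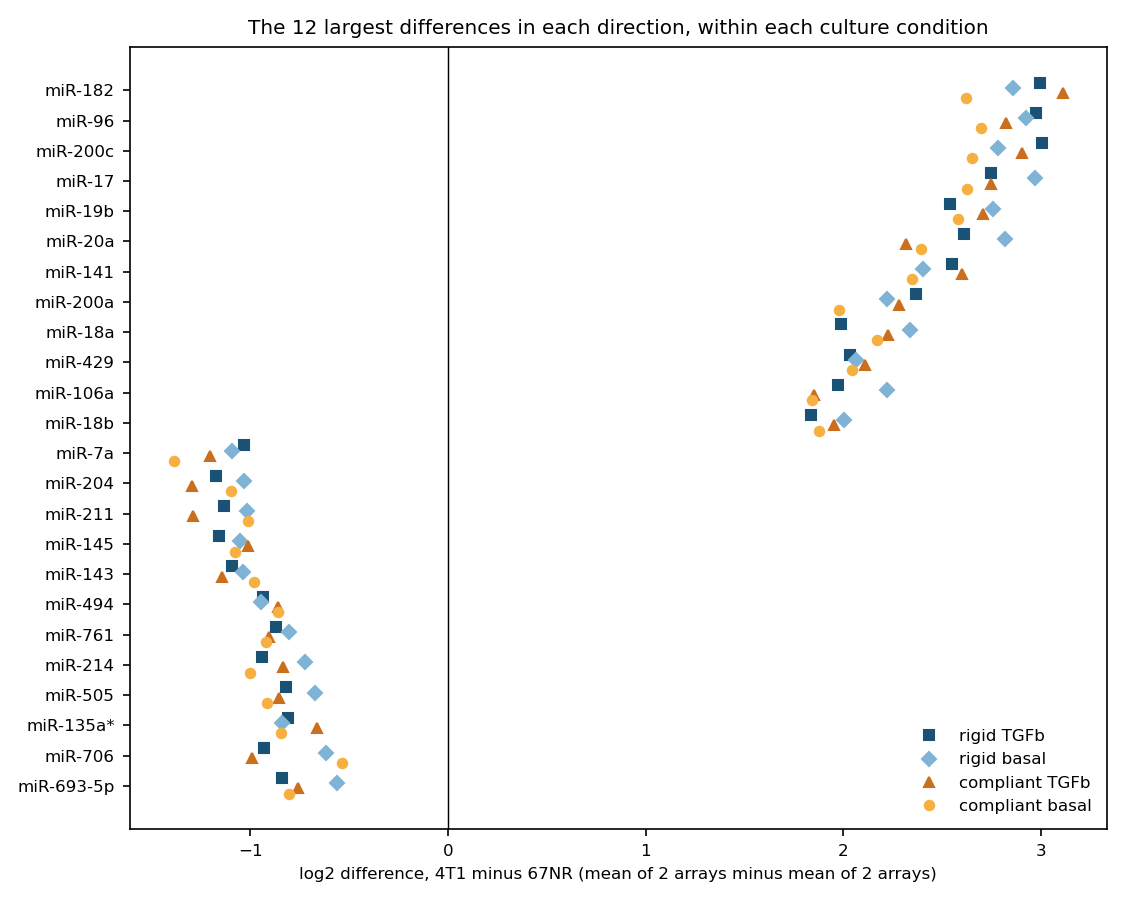
The log2 difference, 4T1 minus 67NR (x axis), of the 12 largest differences in each direction (y axis) is shown within each of 4 culture conditions as a mean of 2 arrays minus a mean of 2 arrays. For miR-182 the 4 values lie between 2.62 and 3.11 and for miR-7a between -1.39 and -1.03, and the shared sign of each miRNA's 4 values was a condition for showing it.

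Large imprinted and repeated clusters showed small shifts. Counts of their members are read against all tested probes, of which 30.6% were higher and 59.2% lower. Of the Dlk1-Dio3 cluster, a maternally expressed imprinted locus of embryonic and neural tissue, 33 of 61 probes were tested; 26 were lower, none higher (2 higher and 25 lower in the authors' deposited value table, which holds 31 of them), and the median was -0.37 against -0.22 over all tested probes. The largest differences after miR-494 were -0.74 for miR-673-3p and -0.66 for miR-341. In the Sfmbt2 intron cluster, known from placenta and stem cells, 15 of 21 probes were tested, with 8 higher and 3 lower and a median of 0.06, beside 0.56 within slide 1 and 0.20 within slide 3. The shared probe of miR-467a and miR-467b was at 8.13, 8.34 and 8.60 in 4T1 and 6.22, 6.29 and 6.35 in 67NR, at least 4.25-fold higher. miR-669a and miR-669b were at least 2.69-fold and 2.0-fold higher. All 3 probes were undetected in 67NR and so entered the test only through 4T1. Cluster members with related sequences may share signal.

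Marker miRNAs of other tissues were mostly absent. Of 7 blood miRNAs, 6 were detected on no array of either line, and miR-451, the erythroid one, was at 9.67, 10.03 and 10.21 in 4T1 and 10.08, 10.22 and 10.42 in 67NR (-0.28 ± 0.07, SE). Both endothelial probes were detected on no array. Of 6 muscle probes 2 were tested: miR-206 was detected on 0 of 8 4T1 and 8 of 8 67NR arrays, at 6.63, 6.67 and 6.74 in 4T1 and 7.22, 7.28 and 7.63 in 67NR, and so at least 1.60-fold higher in 67NR, and miR-208b differed by -0.36. Of 6 neural and liver probes 2 were tested, miR-122 at -0.28 and miR-128 at 0.01. The embryonic stem cell clusters had 6 of 14 probes tested, all lower where 59.2% of all tested probes were, with a median of -0.38 against -0.22. They were lower at 5 of 6 in the authors' deposited value table and with scaling to spike-in probes or none. miR-293 and miR-292-3p differed by -0.44 each and the shared probe of miR-291a-5p and miR-291b-5p by -0.39.

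Lists of miRNAs that other work ties to metastasis held members on both sides. Of 7 reported to promote it, 6 were higher and 1 lower in 4T1, with a median of 0.92 against -0.22 over all tested probes; the difference between this list and the next was not tested. miR-182 led them, and miR-9, known to repress E-cadherin, was at 8.53, 8.71 and 9.01 in 4T1 and 7.0, 7.29 and 7.54 in 67NR (1.44 ± 0.03, SE, adjusted p = 5.4e-16). miR-210, induced by hypoxia, differed by 0.92 ± 0.06 (SE) with overlapping levels of 8.0 to 9.60 in 4T1 and 7.26 to 8.41 in 67NR, and the shared probe of miR-103 and miR-107 by 0.92. The exception was miR-10b, at 8.61, 8.77 and 8.89 in 4T1 and 9.13, 9.19 and 9.49 in 67NR (-0.48 ± 0.06, SE). Of 8 tested miRNAs reported to suppress metastasis, 3 were higher, miR-146a, miR-146b and miR-31, and 4 lower, miR-145, miR-206, miR-335-5p and miR-34a. Of all tested probes 30.6% were higher and 59.2% lower. The median of this list was -0.15, beside -0.15 within slide 1 and 0.06 within slide 3. miR-193b, at -0.07, was not called (adjusted p = 0.20). miR-31, known as a suppressor in human breast cancer cells, was at 12.01, 12.24 and 12.71 in 4T1 and 10.63, 11.23 and 11.43 in 67NR (1.13 ± 0.06, SE).

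Detection alone split the lines for 24 probes. Detected on 8 of 8 4T1 and 0 of 8 67NR arrays were 22 probes, and in the reverse sense 2, miR-143 and miR-206. Bounds for the 22 ran from at least 1.24-fold for miR-362-5p to at least 7.10-fold for miR-96. Some were thus small shifts across the presence threshold, such as miR-339-5p at a mean of 9.72 in 4T1 and 9.35 in 67NR. 4T1 arrays also detected more probes in general, 334 to 357 against 313 to 325 on 67NR arrays. Of the 22, 15 were also detected on all 8 4TO7 arrays, 4 on some of them, and 3, miR-200c, miR-200b and miR-429, on none.

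The 4TO7 arrays placed the families apart from each other. This comparison uses the same 4T1 arrays, so its values are set beside the first and are not separate support. Of 360 probes, 226 (62.8%) differed between 4T1 and 4TO7, 84 (23.3%) higher and 142 (39.4%) lower in 4T1. Past 2-fold were 11 (3.06%), all higher. The 360 probes were picked by detection in 4T1 or 67NR, so a probe detected only in 4TO7 could not be counted as lower. miR-148a was left out in this way, detected on 8 of 8 4TO7 arrays and on 0 of 8 of each other line. Between 4TO7 and 67NR 313 (86.9%) differed. Against 4TO7, 4T1 was higher by 2.43 for miR-141 and 2.14 for miR-200a, where the differences against 67NR were 2.48 and 2.21. miR-200c, miR-429 and miR-200b were undetected on every 4TO7 array, as in 67NR, and 4T1 was at least 6.13-fold, 3.21-fold and 2.81-fold higher than 4TO7. The median 4TO7 level of miR-200c was 5.88, beside 8.59 in 4T1 and 5.75 in 67NR. The miR-183 cluster ran otherwise: 4T1 minus 4TO7 was 0.11 for miR-182, 0.10 for miR-96 (adjusted p = 0.11) and 0.21 for miR-183, and 4TO7 minus 67NR was 2.79 for miR-182. 4TO7 was at least 6.61-fold higher than 67NR for miR-96 and at least 2.62-fold for miR-183, both undetected in 67NR.

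For the miR-17 clusters, 4T1 minus 4TO7 was 0.43 for miR-17, 0.11 for miR-19b and 0.14 for miR-92a, and 4TO7 minus 67NR was 2.34, 2.53 and 1.72. Of the 12 largest differences towards 4T1, 4 were thus past 2-fold against 4TO7 as well, and the other 8 were 0.10 to 0.43. For miR-181c, miR-181d and miR-125b-5p, 4T1 minus 4TO7 was 1.18, 1.13 and 1.09, beside 1.15, 1.02 and 1.32 against 67NR. For miR-146a the measured 4T1 minus 4TO7 was 1.60, with 4TO7 values mostly at background (detected on 2 of 8 arrays). Against 67NR its bound was at least 3.09-fold higher in 4T1. miR-29b and miR-210 were lower in 4T1 than in 4TO7, with differences of -0.35 and -0.78. Among the 12 largest differences towards 67NR, 4T1 minus 4TO7 ran from -0.49 for miR-693-5p to 0.10 for miR-7a, and 4TO7 minus 67NR was -1.28 for miR-7a and -0.70 for miR-204. miR-143, undetected in 4TO7, was at least 2.02-fold higher in 67NR than in 4TO7.

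Within single conditions the difference between the lines was tested with 2 arrays against 2. It was called for 291 probes in rigid TGFb culture (80.8%), 289 in rigid basal (80.3%), 301 in compliant TGFb (83.6%) and 293 in compliant basal culture (81.4%). Conditions moved the size of a few differences. That of miR-125b-5p ran from 0.98 to 1.82 and that of miR-210 from 0.44 to 1.16. For miR-146a, undetected in 67NR, the bound was at least 3.44-fold in rigid TGFb, 1.73-fold in rigid basal, 6.54-fold in compliant TGFb and 2.34-fold in compliant basal culture.

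The response to TGFb, TGFb minus basal averaged over both microenvironments, differed between 4T1 and 67NR for 24 of 360 probes (6.67%), 15 (4.17%) more positive and 9 (2.5%) more negative in 4T1. With slide as a fixed block the count was 14, 12 of them among the 24. miR-22, a miRNA of many tissues, was at 11.16, 11.06, 11.21 and 11.21 with TGFb and at 9.79, 9.88, 9.93 and 10.01 under basal conditions in 4T1, rigid cultures first. In 67NR it was at 11.38, 11.48, 11.34 and 11.30 with TGFb and at 11.16, 11.06, 11.02 and 10.88 under basal conditions. The 4T1 response was 1.26 and the 67NR response 0.34, a difference of 0.91 ± 0.08 (SE, adjusted p = 5.5e-07). All 4 basal 4T1 arrays lay below every other array of both lines.

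let-7i had responses of 0.76 in 4T1 and 0.05 in 67NR (difference 0.72 ± 0.09, SE, adjusted p = 2.3e-05). The responses of miR-132 were 0.74 in 4T1 and -0.10 in 67NR (0.83 ± 0.07, SE), where 0 of 4 TGFb arrays and 4 of 4 basal arrays of 67NR detected it. For miR-146a, miR-146b and miR-149 the 4T1 responses were 1.27, 1.0 and 0.50. In 67NR miR-146a and miR-146b were detected on no array and miR-149 on 1 of 8, so no 67NR response was measured, and the fitted differences of 1.24, 0.96 and 0.53 rest on values at background.

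**Figure D5:**
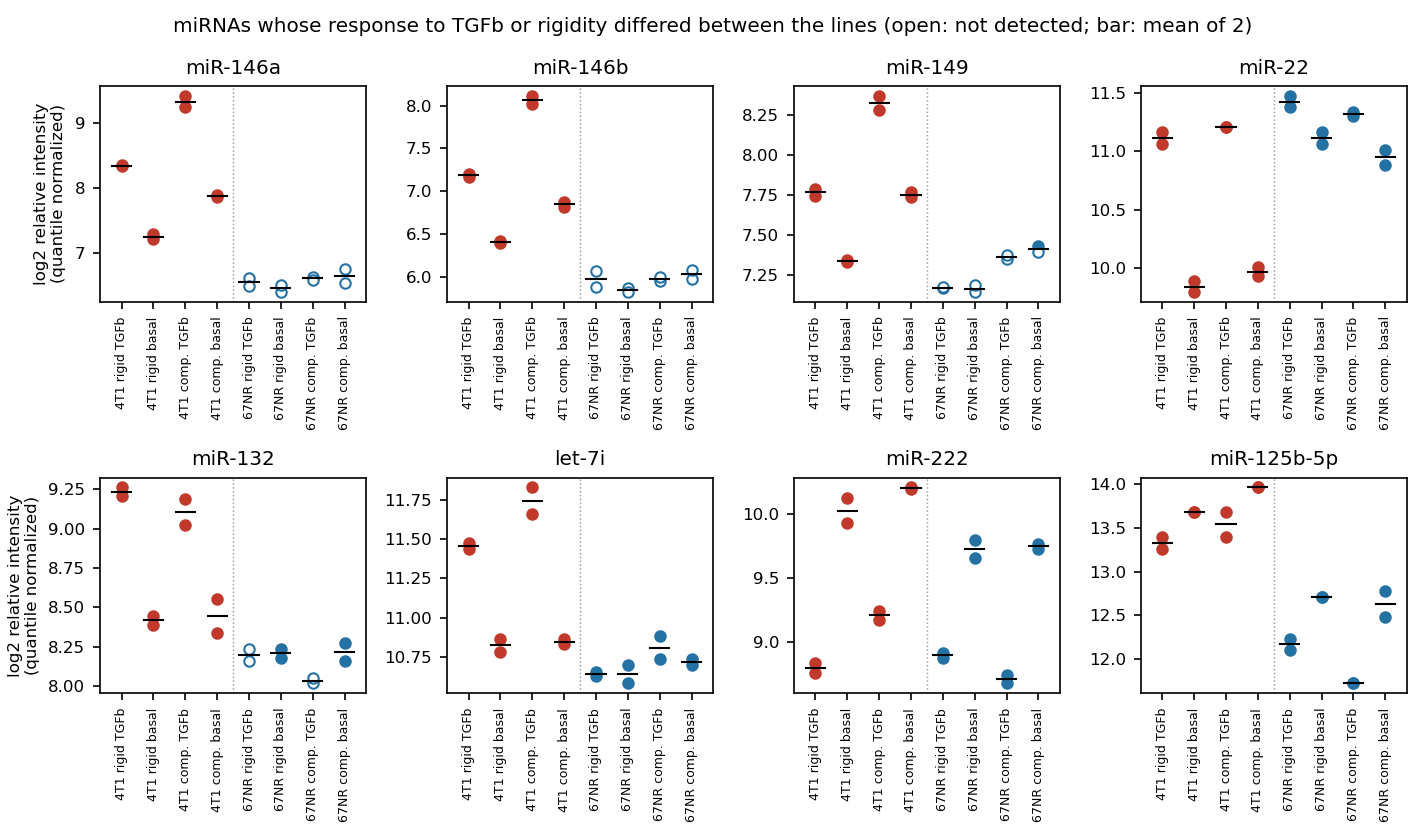
The log2 level (y axes, each with its own range) of 8 miRNAs is shown for 4T1 and 67NR arrays in each culture condition (x axes), with open markers where the probe was not detected and a bar at the mean of 2 arrays. miR-22 with TGFb lies above 11 in both lines and under basal conditions lies below 10.1 only in 4T1, while miR-146a and miR-146b vary with the condition in 4T1 above a flat undetected level in 67NR.

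The response to rigidity, rigid minus compliant, differed between the lines for 20 probes (5.56%), 12 (3.33%) more positive and 8 (2.22%) more negative in 4T1. This count was less stable: it was 9 with slide as a fixed block, 12 with only the 16 arrays and 12 under either median scaling. Leaving out single arrays gave 31 without 4T1 compliant basal set 1, 13 without 4T1 compliant basal set 2, 4T1 rigid basal set 2, 4T1 rigid TGFb set 1 or 67NR compliant basal set 2, and 9 without 67NR rigid TGFb set 2. miR-125b-5p responded by -0.25 in 4T1 and 0.26 in 67NR (difference -0.51 ± 0.09, SE, adjusted p = 0.0031), and miR-222 by -0.29 in 4T1 and 0.08 in 67NR (-0.38 ± 0.07, SE, adjusted p = 0.0031). For miR-805 the responses were 0.41 in 4T1 and -0.05 in 67NR (0.46 ± 0.07, SE). miR-146a, miR-146b and miR-149 responded by -0.80, -0.66 and -0.49 in 4T1, with fitted differences of -0.68, -0.57 and -0.27 that again rest on background in 67NR.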

How the data were processed

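RNA of each sample was labelled with DY649 and hybridised beside a synthetic reference in DY547, per the deposited description of the columns. The deposited intensity is the background-subtracted relative intensity, corrected for labelling by the authors and not normalized between arrays. The deposited files also give an error of each intensity, a presence p-value and a fail code for a reference signal below background. A second file, the authors' table of values, gives log2 values for 338 probes that equal log2 intensity plus a constant per array of -0.29 to 0.24 (largest deviation 5.9e-06, column medians 8.13 to 8.36); the rule for the constants and array software are not given in the sources used here.

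Log2 intensities of the 558 miRNA probes (35 spike-in probes set aside) of all 24 arrays were quantile normalized and fitted with limma 3.58.1 in R 4.3.3 as 12 group means, with 12 residual degrees of freedom. Fitting all groups gives a shared estimate of each probe's spread. Probes detected on both arrays of at least 1 of the 8 groups of 4T1 and 67NR, with a fail code on fewer than 8 of the 16 arrays, were tested (360, of which 7 carry several names). The main contrast weights the 4 conditions equally, and p-values were adjusted over the 360 probes. The text names the 12 largest differences in each direction with the same sign in every condition and set, the 6 smallest p of each difference of responses, members of lists (up to 5 tested members each, otherwise the 3 largest) and both arms of named precursors; others named were chosen after their values were seen. The members and lists were chosen with earlier results of these data known. Sequences and positions are RefSeq's for GRCm38.p6: 61 of 62 names matched, and gene spans do not tell exon from intron. Alternatives were normalization, filters, slide, set as a block, array weights, single arrays left out and, added after seeing the data, spike-in scaling and no scaling.

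Whether the set numbers pair samples was checked by correlating deviations from the group means. Over the 4 matched pairs of 4T1 and 67NR groups the correlation was -0.14 to 0.30, over the 6 pairs of 4T1 groups 0.23 to 0.49 and over the 6 pairs of 67NR groups -0.10 to 0.28. Not every pair was above 0.1, so the numbers were taken not to pair the samples, although those of the 4T1 groups deviated together. The fit treats the groups as independent, so SEs and p-values of the main contrast may be too small.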

Additional observations from a re-analysis of the deposited data

Results flagged for a closer look

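Among the 24 largest differences, the 8 levels of each line were checked for an array far from the rest, and 4 of 48 checks found one, where chance gives about 1 in 20. The gap to the nearest array was 0.597 of the range for miR-200a in 4T1 compliant basal set 1 (8.32, the others 8.53 to 8.67). For 67NR it was 0.732 for miR-106a in rigid basal set 2 (6.51, the others 6.80 to 6.90) and 0.61 for miR-494 in compliant basal set 2 (12.01, the others 12.24 to 12.38). miR-214 in 67NR compliant TGFb set 2 had a ratio of 1 (13.40, the others 13.69), since its rank on the other 7 arrays was the same.

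Responses to a culture condition that differed between the lines, 4T1 minus 67NR, were also marked. For TGFb they were 1.24 for miR-146a, 0.96 for miR-146b, 0.53 for miR-149, 0.91 for miR-22, 0.83 for miR-132 and 0.72 for let-7i. For rigidity they were -0.68 for miR-146a, -0.57 for miR-146b, -0.27 for miR-149, 0.46 for miR-805, -0.38 for miR-222 and -0.51 for miR-125b-5p.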

How the results depend on the processing

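The 24 largest differences kept direction and threshold side in all 669 values recomputed under the alternatives, and the 12 differences of responses in all 310. The probes had been picked from the same arrays, for large differences of constant sign or for the smallest p. That choice leaves little room for a change, so neither count is separate support. Some of the differences of responses also rest on background values in the nonmetastatic line. The count of probes that differed between the lines was 312 to 329 under other scalings, filters and slide or weight settings, 437 of 548 without the detection filter, and 321 to 325 with single arrays left out. The 2 scalings added after seeing the data gave 255 (spike-in probes) and 285 (none). Scalings moved the median of all tested probes by -0.07 to 0.08. Without single arrays the counts were 260 to 291 in rigid TGFb, 260 to 294 in rigid basal, 278 to 303 in compliant TGFb and 265 to 296 in compliant basal culture, 18 to 35 for the TGFb response and 9 to 31 for the rigidity response. The TGFb count of 24 fell to 14 with slide as a fixed block. The rigidity count of 20 was 9 with slide as a fixed block and 12 with median scaling over all miRNA probes, over probes detected on all arrays, or with only the 16 arrays; the cause was not tested. With the replicate block, taken from set numbers that share only a number, 326, 29 and 22 probes were called for the lines, the TGFb and the rigidity response, and same-numbered arrays correlated above 0 in 3 of 4 matched pairs of groups. Signal over background limits miRNAs undetected in a line to bounds.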

Other observations

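Some differences outside the lists were seen on inspection and were chosen after their values were seen. miR-196b, from a Hox gene cluster, was at 6.82, 7.01 and 7.18 in 4T1 and at 5.28, 5.39 and 5.51 in 67NR, where no array detected it, and so at least 2.13-fold higher in 4T1; its difference between 4T1 and 4TO7 was 0.46. miR-92b, undetected in 67NR, was at least 2.56-fold higher in 4T1. The arms of miR-338 went opposite ways: miR-338-3p was at 7.61, 7.80 and 7.92 in 4T1 and 6.70, 6.85 and 6.94 in 67NR (0.95 ± 0.03, SE, adjusted p = 2.3e-13), and miR-338-5p differed by -0.14. Against 4TO7, miR-338-3p was higher in 4T1 by 0.91. In the same way miR-345-5p differed by 0.29 and miR-345-3p by -0.65, miR-191 by 0.38 and miR-191* by -0.55, and miR-29b by 1.29 and miR-29b* by -0.44.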
